A study of Drosophila melanogaster with 2 samples.

Results

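The small nuclear RNA (snRNA) genes of Drosophila melanogaster were examined in chromatin immunoprecipitation sequencing (ChIP-seq) peak lists for a protein tagged with GFP. The protein is encoded by CG15812, which the labels also call pfk. Members were all genes that the Ensembl BDGP6 annotation gives the biotype snRNA on the chromosome arms, 32 of 18164 genes after transposable elements were left out. They comprise 5 U1, 6 U2, 3 U4, 7 U5, 3 U6 and 2 7SK genes, and 1 gene each for U7, U11, U12, U4atac, U6atac and LU. None lies on 2R or 4.

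The 2 samples form 1 group, biological replicates 1 and 2 of whole embryos aged 0 to 24 h, of pooled sex, from a transgenic line in which GFP is fused to the C terminus of the CG15812 product. An untagged line or other treatment was not analysed here. For each replicate the authors deposited 30000 regions in a relaxed list that includes background. Another such list came from the pooled replicates, and a shorter list of peaks passed a threshold on the irreproducible discovery rate (IDR), a measure of how well replicates rank the same peaks. All lists rest on 1 shared control alignment. A description in the labels speaks of an input control while the assay title and antibody entry mark immunoprecipitated samples, and they are treated here as immunoprecipitated. Signal is the authors' own peak score, for which the files name no unit, and a rank of 1 is the highest signal of a list. Read depth is unknown, and the labels do not say whether the line keeps an untagged copy of the gene. In whole embryos, a weak signal in all cells and a strong signal in few cells cannot be told apart.

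The spliceosome removes introns with snRNAs packed into ribonucleoproteins. U1 pairs with the 5' splice site, U2 with the branch point, and U4, U5 and U6 join as a tri-snRNP, while U11, U12, U4atac and U6atac serve a rare class of introns. U7 guides the processing of histone mRNA ends, and 7SK RNA holds the elongation kinase P-TEFb in an inactive complex. Most snRNA genes are transcribed by RNA polymerase II, but U6, U6atac and 7SK genes by RNA polymerase III. Both kinds of promoter carry a proximal sequence element, called PSEA in flies, which the SNAPc complex binds.

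Of the 5 IDR summits near snRNA genes, 1 ranked high and 4 in the lowest-ranked 1 in 3 of the list. An IDR summit lay within 1 kb of the start of 7 of the 32 genes (21.9%), against 14.5% of protein-coding genes, 20.1% of snoRNA genes, 8.97% of tRNA genes, 8.37% of other non-coding RNA genes and 13.1% of all genes other than snRNA genes. The 7 genes shared 5 summits in 5 of 21 loci, since the 3 U6 genes are neighbours and had 1 summit between them, and the share was close to that of snoRNA genes. The order against protein-coding genes turned when replicate 2 was left out, with 4 of 32 (12.5%) against 14.8%, and among the upper 50% of IDR peaks by signal, with 1 of 32 (3.12%) against 7.37%. This order also turned when a called IDR region had to overlap the gene, again with 4 of 32 (12.5%) against 14.8%. Without replicate 1 the shares were 18.8% and 13.8%. Of the 9 members with over 90% unique sequence near the start, 1 had an IDR summit. With 1 group of 2 samples no test was made.

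The bases at these 5 summits are shown first, because they show which summits lie inside an snRNA and which do not. Each window reaches 50 bp to each side of the summit in dm6, on the strand of the snRNA gene, and capitals mark bases of an annotated snRNA. The windows are chr3R:7474730-7474830 for snRNA:7SKa (minus strand), chr2L:21215124-21215224 for snRNA:U4:39B (minus strand), chr3R:23859452-23859552 for snRNA:U1:95Ca (minus strand), chr2L:19817289-19817389 near snRNA:U5:38ABb (plus strand) and chr3R:24557022-24557122 in the U6 cluster (plus strand).
snRNA:7SKa summit: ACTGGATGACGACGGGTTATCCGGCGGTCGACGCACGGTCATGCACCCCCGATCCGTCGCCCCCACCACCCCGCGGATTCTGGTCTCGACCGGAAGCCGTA
snRNA:U4:39B summit: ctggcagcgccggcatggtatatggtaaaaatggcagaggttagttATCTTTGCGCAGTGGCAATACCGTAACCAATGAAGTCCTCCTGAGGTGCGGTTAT
snRNA:U1:95Ca summit: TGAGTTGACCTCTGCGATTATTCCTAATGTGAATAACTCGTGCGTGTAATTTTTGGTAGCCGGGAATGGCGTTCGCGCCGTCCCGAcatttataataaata
summit near snRNA:U5:38ABb: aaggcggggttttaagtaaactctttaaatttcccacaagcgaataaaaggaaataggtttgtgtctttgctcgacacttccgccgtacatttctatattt
summit of the U6 cluster: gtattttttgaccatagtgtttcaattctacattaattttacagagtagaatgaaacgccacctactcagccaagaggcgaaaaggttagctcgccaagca

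All 101 bases at the 7SKa summit are transcribed as 7SK RNA, as are 86 of those at U1:95Ca and 55 of those at U4:39B as U1 and U4 RNA. The other 2 windows hold 0 snRNA bases. The G+C content was 67.3% at 7SKa, 49.5% at U4:39B, 43.6% at U1:95Ca, 39.6% in the U6 cluster and 37.6% near U5:38ABb. GGAACG, read on either strand, was in 0 of the 5 windows, against 14.7% of all IDR summit windows of this size.

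snRNA:7SKa was the member with the highest signal. This gene (FBgn0065099, 3R, 7474553 to 7474996, minus strand, 444 bp) held an IDR peak (7474613 to 7474941). Its summit was 216 bp into the gene, near the middle of the RNA. The pooled signal was 512 (rank 526), with 311 in replicate 1 (rank 472) and 198 in replicate 2 (rank 656). The replicate summits lay 29 bp apart, and each replicate placed the gene far above the other members. The nearest protein-coding start, that of CG1142, was 999 bp from the summit. The other 7SK gene, snRNA:7SKb, lies inside CG4374 on the opposite strand and shares 48.9% of aligned bases with 7SKa. It had no summit within 1 kb in the pooled list or in replicate 1, and in replicate 2 a signal of 16.4 at rank 28521 of 30000, close to the end of the list.

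The 3 U6 genes form a cluster of 1234 bp on 3R (24556088 to 24557321), with no protein-coding start within 7 kb, and encode identical RNAs of 107 bp. The IDR peak there (24556872 to 24557271) had its summit at 24557072, outside every annotated gene. It lay 380 bp downstream of the start of snRNA:U6:96Ab and at -143 bp from that of snRNA:U6:96Ac, that is upstream of it. The same summit counts for snRNA:U6:96Aa at 984 bp. The pooled signal was 135 (rank 2644), with 61.2 in replicate 1 (rank 4002) and 73.8 in replicate 2 (rank 2148), at summits 1 bp apart. Weaker pooled summits lay at 92 bp (signal 37.0, rank 18464) and 439 bp (signal 42.5, rank 15154) from the start of U6:96Ac, the first of them inside that gene.

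At snRNA:U4:39B and snRNA:U1:95Ca the IDR summit lay inside the annotated transcript. U1:95Ca is identical over 164 bases to U1:21D and U1:95Cb, so sequence inside it does not tell which copy a peak belongs to. U4:39B (2L, 21215036 to 21215178, minus strand) lies in Atg18b on the same strand. Its peak from 21214974 to 21215373 had a summit 4 bp downstream of the U4 start, with a pooled signal of 155 (rank 2079), 79.4 in replicate 1 (rank 2556) and 68.2 in replicate 2 (rank 2440). U1:95Ca (3R, 23859467 to 23859630, minus strand) lies 30422 bp from the nearest protein-coding start, that of Pli. Its peak from 23859302 to 23859701 had a summit 128 bp downstream, with a pooled signal of 139 (rank 2515), 79.3 in replicate 1 (rank 2559) and 61.7 in replicate 2 (rank 2871). The replicate summits were 120 bp apart, 3 bp from the start in replicate 1 and 123 bp in replicate 2. A weaker pooled summit at -72 bp (signal 71.5, rank 6982) flanked the gene on the upstream side.

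The last IDR summit lay far from the gene it was assigned to. snRNA:U5:38ABb (2L, 19816414 to 19816540, plus strand) is the last of 5 snRNA genes spread over 5807 bp inside sick, and the summit was 925 bp downstream of its start, also within sick. The pooled signal was 136 (rank 2623), with 67.8 in replicate 1 (rank 3396) and 59.8 in replicate 2 (rank 3037). Of the other 4 genes of that cluster, snRNA:U4:38AB had a pooled summit at -811 bp (signal 74.8, rank 6559), while U5:38ABa, U2:38ABb and U2:38ABa were in none of the lists.

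At all 7 genes the IDR summit lay nearer to the snRNA start than to any protein-coding start. The summits were picked within 1 kb of an snRNA start, so the choice itself favoured this order. An snRNA gene with a protein-coding start within 1 kb was rare (5 of 32: U11, U2:34ABa, U2:34ABb, U5:35D and U6atac), and 0 of these 5 had an IDR summit. Of the 27 others, 7 had one (25.9%), whereas among the 2720 snoRNA, tRNA and other non-coding genes without such a neighbour the share was 5.18%. The 7 genes again stand for 5 summits, and the difference was not tested. Within 1 kb of an IDR summit lay 3.88% of the bases of the chromosome arms.

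Except at 7SKa, the peaks sat just inside the authors' limit. The IDR list ends at a signal of 128, and 4 of the 5 snRNA summits lay between 135 and 155. Ranks from 1925 on are the lowest-ranked 1 in 3 of the IDR list and held these 4 summits, against 31.9% of the 1408 IDR summits at protein-coding starts, 35.7% of 14 at tRNA genes and 11.8% of 34 at snoRNA genes. The median rank was 2515 over the 5 snRNA summits and 1404.5 over those at protein-coding starts. The members next below the limit were snRNA:U5:63BC, with a pooled signal of 103 (rank 4111), and snRNA:U2:34ABb, with 92.2 (rank 4837).

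**Figure D1:**
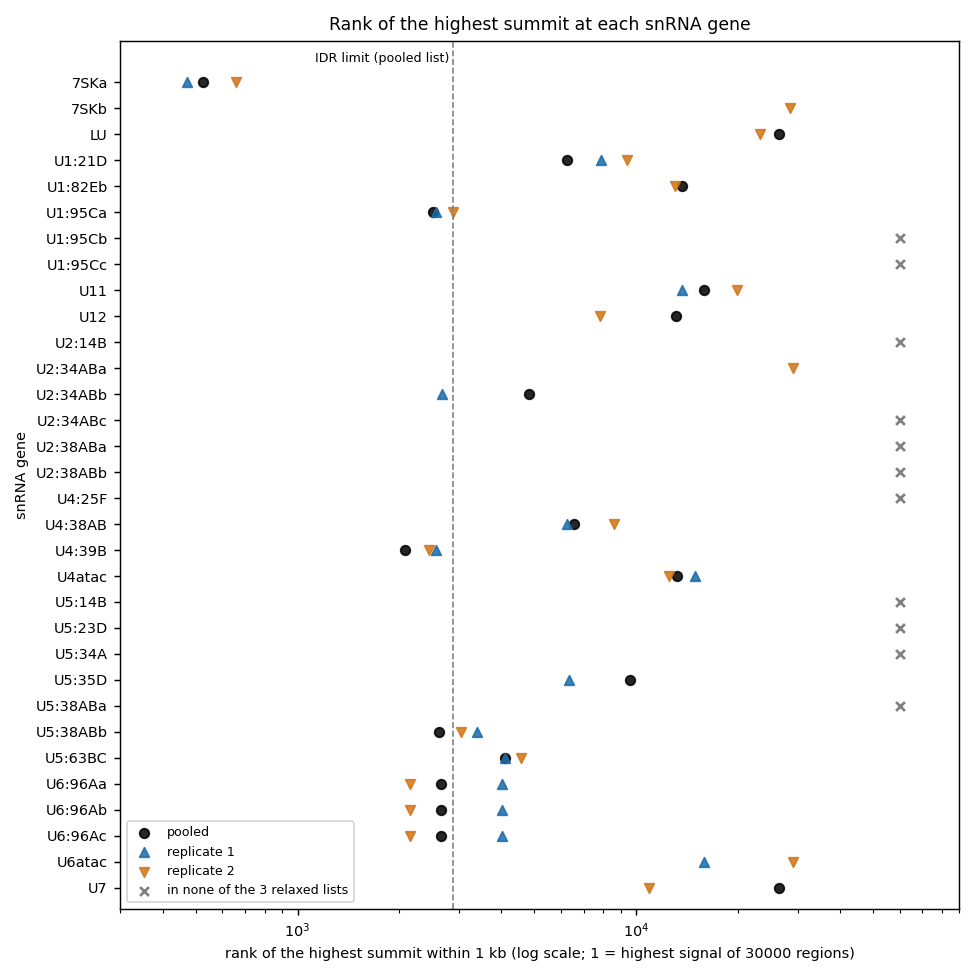
Rank of the highest summit within 1 kb of each of the 32 snRNA gene starts in the pooled list (circles) and in replicates 1 and 2 (triangles), on a log axis where 1 is the highest signal of 30000 regions; the dashed line is the last rank of the IDR list. Crosses mark the 11 genes with no summit in any relaxed list and have no rank; 7SKa stands apart at ranks 472 to 656.

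Below the IDR limit, the relaxed lists covered more of the members. A pooled summit within 1 kb was found for 18 of the 32 genes (56.2%), against 61.7% of protein-coding, 50.2% of snoRNA and 72.4% of tRNA genes, 39.7% of the 2720 non-coding genes without a protein-coding start nearby, and 30.4% of the bases of the arms. The other groups of genes are, besides the 7 with an IDR summit, 11 with a weaker pooled summit, 3 with a summit in a replicate list only, and 11 with none in any list. Replicate 1 listed 15 members and replicate 2 listed 19, with 13 in both. Shares of all genes in the replicate lists, or in none, are not given here. The counts by replicate list thus describe the members alone and are set against no other genes. Among these 13 the replicate ranks differed by 1.05 to 1.86 times, and in 9 the replicate summits lay less than 100 bp apart. The 3 U6 genes share 1 summit, which counts 3 times in both the 13 and the 9. No rank ratio exists for the 2 members in replicate 1 alone and the 6 in replicate 2 alone. The 18 genes with a pooled summit stand for 16 distinct highest summits.

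The 11 weaker pooled summits spread over U1, U2, U4, U5 and the single-copy RNAs. snRNA:U5:63BC had its summit 44 bp downstream of the start, with signals of 60.3 in replicate 1 and 47.4 in replicate 2. snRNA:U1:21D (pooled signal 77.1) had signals of 39.4 and 31.2, with the pooled summit at 81 bp. In these 2 genes each replicate listed a summit inside the transcript, and replicate 1 was the higher. The transcript of U1:21D is identical to that of U1:95Ca, so which copy the peak belongs to cannot be told from sequence inside it. snRNA:U2:34ABb was listed in replicate 1 alone, with a signal of 77.5 (rank 2674) at 156 bp. The pooled summit of U2:34ABb was 589 bp from the start of kek4. Its transcript is identical to that of U2:34ABc, a gene in no list, so sequence inside it does not tell these copies apart. Listed likewise was snRNA:U5:35D in replicate 1 alone, with 45.4 at 596 bp. The pooled summit of U5:35D was 81 bp from the start of ND-B17, a gene of respiratory complex I, and 523 bp from the U5 start. In replicate 2 alone were snRNA:U1:82Eb (25.8), snRNA:U12 (34.7), snRNA:U7 (28.6) and snRNA:LU (18.6), and their pooled signals were 45.4, 46.9, 29.1 and 29.1. Pooled regions of such signal rank from 13080 to 26337 of 30000.

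Each of the 4 genes for RNAs of the minor spliceosome had a summit in at least 1 relaxed list, and these lists include background. The pooled list held 3 of the 4, where it held 61.7% of protein-coding, 50.2% of snoRNA and 72.4% of tRNA genes. An IDR summit lay at 0 of 4, where the share of all other genes was 13.1%. Both counts are too small to set against these shares. snRNA:U11, in Fie, had a pooled signal of 41.1 at 183 bp, 26.9 in replicate 1 and 20.3 in replicate 2, but the replicate summits lay 650 bp apart. Its pooled summit was 416 bp from the start of Fie. snRNA:U4atac, in cno, had 46.5 at 452 bp, 25.2 in replicate 1 and 26.4 in replicate 2, at summits 1108 bp apart. A weaker summit of replicate 2 (signal 21.4) lay at 471 bp, close to that of replicate 1 at 451 bp. snRNA:U6atac had no pooled summit, and its replicate signals of 24.1 and 16.3 lay 440 bp apart. The highest summits of the replicates thus lay at different places in all 3 of these genes.

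By polymerase, 4 of the 6 genes of the polymerase III kind (U6, U6atac, 7SK) had an IDR summit and 3 of the 26 others, where the share over all genes other than snRNA genes was 13.1%. Since the U6 genes share 1 summit, these are 2 summits against 3. Without replicate 2 the counts were 1 of 6 and 3 of 26, and without replicate 1 they were 4 of 6 and 2 of 26. By RNA, U6 had an IDR summit at 3 of 3 genes, 7SK at 1 of 2, U4 at 1 of 3, U1 at 1 of 5, U5 at 1 of 7 and U2 at 0 of 6. In the same regions of replicate 1, U6 had 0 of 3, U5 had 0 of 7 and U2 had 1 of 6. Genes of a cluster can share a summit and are not independent.

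**Figure D2:**
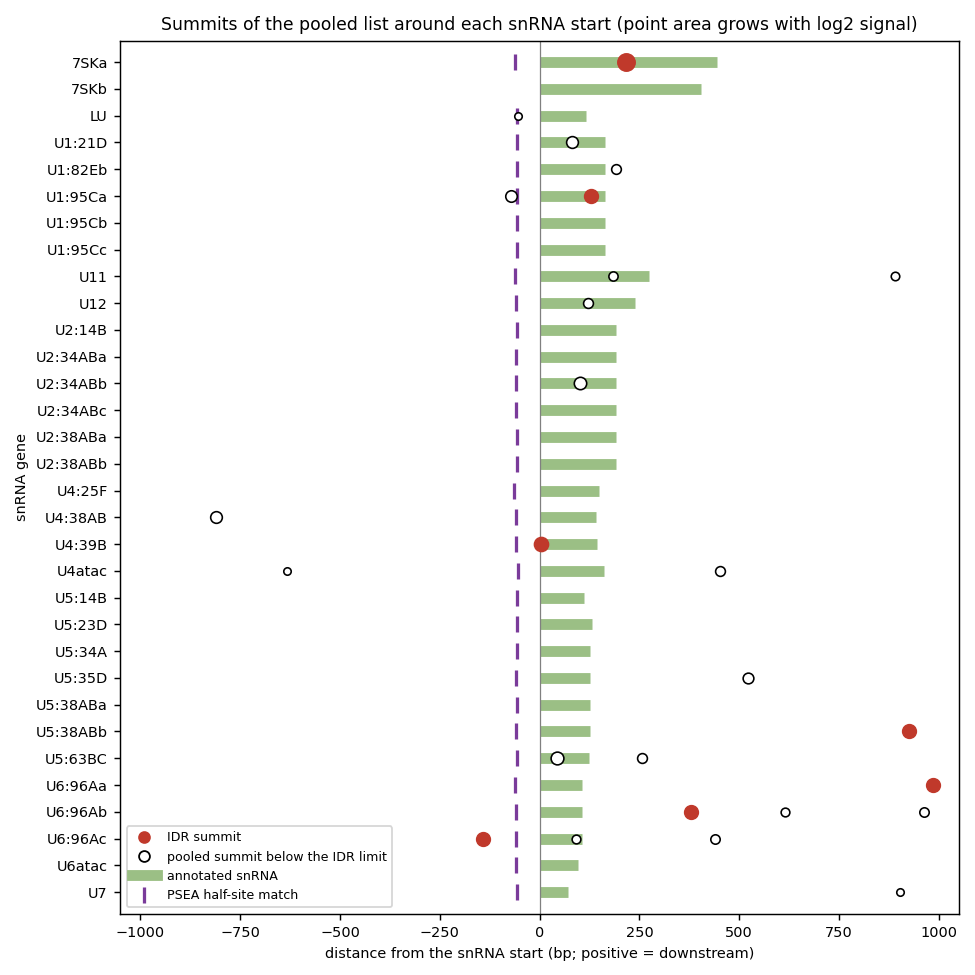
Position of every pooled summit within 1 kb of each snRNA start, in bp along the strand of the gene; red points are IDR summits, white points weaker pooled summits, and point area grows with log2 signal. Bars are the annotated RNAs and purple ticks the PSEA match; the U6 points at 984, 380 and -143 bp are the same summit.

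Close to the start, more snRNA genes had a pooled summit downstream than upstream. A pooled summit 0 to 250 bp downstream of the start was found for 10 of 32 snRNA genes (31.2%), against 17.0% of protein-coding genes, 17.9% of tRNA genes and 5.20% of snoRNA genes. In the 250 bp upstream the counts were 3 of 32 (9.38%), 30.9% of protein-coding, 26.6% of tRNA and 9.67% of snoRNA genes. The 10 genes were 7SKa, U1:21D, U1:82Eb, U1:95Ca, U11, U12, U2:34ABb, U4:39B, U5:63BC and U6:96Ac. Of these, U1:95Ca (-72 bp) and U6:96Ac (-143 bp) also count upstream. At U6:96Ac the downstream summit is a weak one (signal 37.0, rank 18464), and its highest summit is the upstream one. The median position of the highest pooled summit was 155.5 bp over the 18 snRNA genes that had one and -60 bp over 8603 protein-coding genes. In the former the shared U6 summit counts 3 times. The window of 0 to 250 bp was chosen after the positions had been seen, and the difference was not tested. Replicate 1 alone gave 7 such genes and replicate 2 alone 9, of which 5 were in both: 7SKa, U1:21D, U1:95Ca, U4:39B and U5:63BC.

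**Figure D3:**
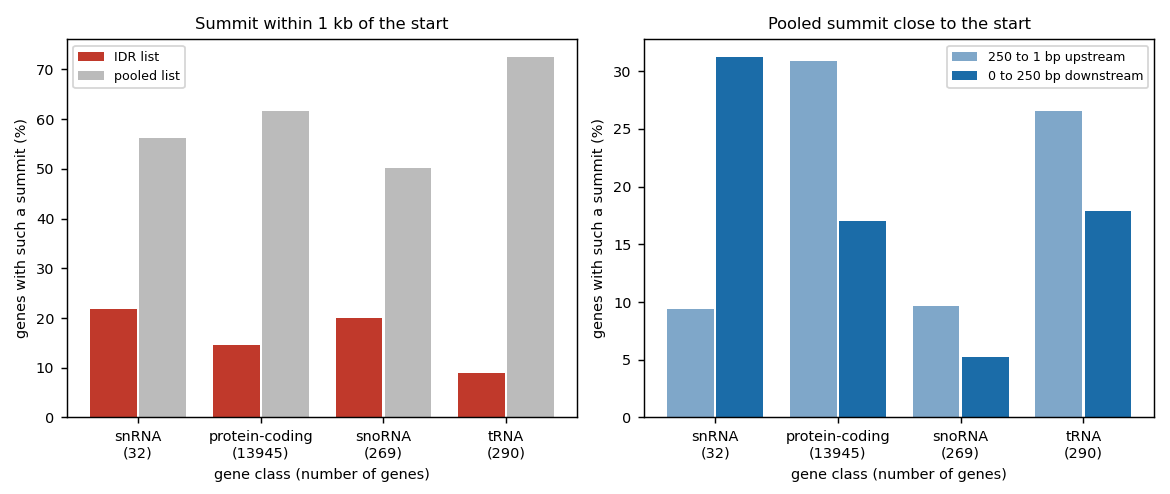
Percent of genes with an IDR or pooled summit within 1 kb of the start (left) and with a pooled summit in the 250 bp upstream or downstream of it (right), for 32 snRNA, 13945 protein-coding, 269 snoRNA and 290 tRNA genes; bars start at 0. The snRNA genes have 31.2% downstream and 9.38% upstream, where protein-coding genes have 17.0% and 30.9%.

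Genes with and without a peak shared a promoter element. The letters TTCNCAA, the left part of the fly PSEA, began between -64 and -55 bp (median -58) on the coding strand in 31 of 32 snRNA genes. Among the 18132 other genes, 2.18% had this match between -90 and -30 bp. The 31 include all 7 genes with an IDR summit and all 11 in no list. The exception was 7SKb. The windows below run from 80 bp before to 20 bp from the start and show genes with an IDR summit and relatives without one, with the match in capitals. The first 4 had an IDR summit, namely 7SKa (chr3R:7474977-7475076, minus strand), U1:95Ca (chr3R:23859611-23859710, minus), U4:39B (chr2L:21215159-21215258, minus) and U6:96Ac (chr3R:24557135-24557234, plus). The next 4 were in no list, namely U1:95Cb (chr3R:23827790-23827889, plus), U4:25F (chr2L:5565539-5565638, plus), U2:38ABa (chr2L:19815786-19815885, minus) and U5:34A (chr2L:13244768-13244867, plus). The last is 7SKb (chr3R:23432789-23432888, plus), which had no match. U1:95Ca and U1:95Cb are identical over 164 bases, with 0% unique 50-base sequences inside either gene. Sequence inside them thus does not tell which copy a peak there belongs to.
snRNA:7SKa: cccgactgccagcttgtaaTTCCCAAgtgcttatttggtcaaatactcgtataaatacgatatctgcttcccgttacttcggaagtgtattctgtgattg
snRNA:U1:95Ca: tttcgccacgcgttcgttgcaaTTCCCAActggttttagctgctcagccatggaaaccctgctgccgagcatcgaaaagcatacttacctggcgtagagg
snRNA:U4:39B: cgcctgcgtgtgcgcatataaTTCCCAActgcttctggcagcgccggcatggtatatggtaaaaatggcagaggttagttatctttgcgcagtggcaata
snRNA:U6:96Ac: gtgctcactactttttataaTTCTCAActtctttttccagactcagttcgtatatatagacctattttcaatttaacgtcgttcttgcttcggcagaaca
snRNA:U1:95Cb: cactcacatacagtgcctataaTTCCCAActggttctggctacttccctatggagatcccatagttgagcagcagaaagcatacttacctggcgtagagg
snRNA:U4:25F: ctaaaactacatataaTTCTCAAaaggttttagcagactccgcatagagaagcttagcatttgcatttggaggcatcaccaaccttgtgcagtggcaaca
snRNA:U2:38ABa: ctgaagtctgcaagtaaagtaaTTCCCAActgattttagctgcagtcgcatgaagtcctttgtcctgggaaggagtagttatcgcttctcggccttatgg
snRNA:U5:34A: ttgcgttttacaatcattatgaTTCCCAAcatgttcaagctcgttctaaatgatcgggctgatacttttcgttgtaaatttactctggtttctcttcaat
snRNA:7SKb: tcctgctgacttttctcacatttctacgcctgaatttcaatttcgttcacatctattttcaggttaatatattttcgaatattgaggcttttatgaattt

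Other letters searched on either strand from 250 bp before to 50 bp after the start were spread as follows. CAACTG, the PSEA core, can begin with the last 3 letters of the element above. It was in 15 of 32 snRNA promoters (46.9%) and 20.5% of other promoters. TATAAA was in 15 of 32 (46.9%) and 43.9%, and began at -31 bp in 7SKa and -30 bp in the U6atac gene. The letters TATCGA were in 4 of 32 (12.5%) against 24.4%, and GAGAGA in 1 (3.12%) against 11.7%. GGAACG was in 6 of 32 (18.8%) against 7.15%. In the 3 U6 genes it began 32 bp into the identical U6 RNA, and in the other 3 (U2:34ABc, U5:34A and U5:14B, none of them in any list) it lay upstream. U2:34ABc and U5:34A are divergent neighbours and hold the same copy, so the 6 genes stand for 5 sites, 3 of them in identical U6 copies.

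Many snRNA genes are near-identical copies, which limits where reads can be placed. Aligned U1 copies shared 98.2 to 100% of bases, U2 copies 98.4 to 100%, U4 copies 73.8 to 94.4% and U5 copies 78.5 to 96.1%. Within 200 bp of the start, the share of 50-base sequences that occur once in the assembly had a median of 86.9% over the snRNA genes, against 100% over protein-coding genes and 92.05% over tRNA genes. By listing, this share had a median of 81.8% (63.6 to 100) at the 7 genes with an IDR summit. It was 88.9% (53.4 to 100) at the 11 with a weaker pooled summit. At the 3 in a replicate list only it was 100% (57.4 to 100), and at the 11 in no list 75.3% (41.5 to 100). Of the 9 genes with over 90% unique sequence, 8 were in some list, and of the 23 others 13 were. The share of all genes in at least 1 list is not given here. For the IDR list the order turned, with 1 of the 9 and 6 of the 23, against 13.1% of all genes other than snRNA genes. U4:25F was fully unique and in no list, while U1:95Ca, with 0% unique sequence inside the gene and 63.6% around it, had an IDR summit. The read length and the handling of reads with several matches in peak calling were not stated in the labels or file notes. The part of repeated sequence in the listing was not tested.

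**Figure D4:**
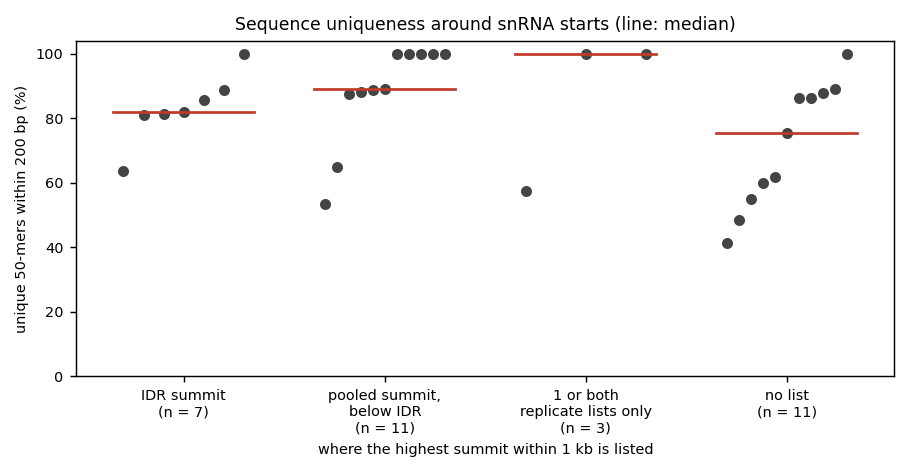
Percent of 50-base sequences within 200 bp of the start that occur once in the genome assembly, for each snRNA gene, grouped by where its highest summit within 1 kb is listed; lines are medians. The groups overlap, with 41.5 to 100% in genes of no list and 63.6 to 100% in genes with an IDR summit.

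Genes for proteins that make, hold or act with snRNAs included several with far higher peaks than those at snRNA genes, up to a signal of 3307 at a gene start (U2af50) and 8194 at another start site (bin3). Of 79 such genes matched in the annotation, 22 (27.8%) had an IDR summit within 1 kb of the gene start, against 14.5% of all protein-coding genes. Within 1 kb of any of their start sites 23 (29.1%) had one, against 16.0%. The lists were chosen with results of these data known and were not tested. Genes without an IDR summit at the gene start are named below as examples chosen after their values were seen. Many summits lie within 1 kb of a neighbouring gene start as well, so the gene they belong to cannot be told apart. Besides the neighbours given with their genes, these were sds22 for Brf, CG6565 for Bdp1, Rtel1 for IntS6, Ptp69D for SmD1, CG17768 for LSm-4, KdelR for SmB, PIG-Q for U2af50, CG7564 for U4-U6-60K and Vha26 for noi. Neighbours were looked up only for IDR summits at gene starts, so not for the bin3 summit of 8194.

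Among initiation factors 4 of 11 (36.4%) had an IDR summit, against 14.5% of all protein-coding genes. They were TfIIB (signal 1638, rank 203), the polymerase III factors Brf (232, rank 1207) and Bdp1 (184, rank 1641), and TfIIA-S (130, rank 2822). TfIIB had 751 in replicate 1 and 901 in replicate 2, and its peak also lies within 1 kb of Bug22. The 3 SNAPc genes, which encode the PSEA-binding complex, had none, and 3 genes are too few to set against 14.5%. Their pooled signals were 69.4 at Pbp49 and 59.8 at Pbp95, with no pooled summit at Pbp45. Integrator, which cuts the 3' ends of nascent snRNAs, had 4 of 14 (28.6%, against the same 14.5%). These were IntS1 (1959, rank 167), IntS3 (276), IntS6 (169) and omd (154), the gene of the fifth subunit. IntS1 had 1044 in replicate 1 and 941 in replicate 2, and shares its peak with Not11.

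Of 9 genes of the little elongation complex and the 7SK particle, CycT, the cyclin of P-TEFb, had a signal of 357 (186 in replicate 1 and 204 in replicate 2), and Su(Tpl), the ELL elongation factor gene, 178. The Su(Tpl) summit is the same as that of Prp3 and also lies within 1 kb of Mi-2. bin3, which encodes the 7SK capping enzyme, had a signal of 106 at its gene start but 8194 (rank 21) at another of its start sites. Whether that summit also lies near the start of another gene was not examined. Hexim (43.2) and Larp7 (54.0), genes of 7SK-binding proteins, and Cdk9 (86.8) had pooled signals under the IDR limit.

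Of 12 Sm and Lsm genes, which encode the ring proteins of snRNPs, 4 (33.3%) had an IDR summit, against 14.5% of all protein-coding genes. They were SmD1 (1146, rank 279), LSm-4 (899, at 938 bp from its start), SmD3 (284) and SmB (152). Lsm10 and Lsm11, which replace Sm proteins on U7, had pooled signals of 38.2 and 48.7. Of 25 snRNP protein genes 8 (32%) had one, against the same 14.5%. They were led by U2af50 (3307, rank 90, with 1582 in replicate 1 and 1760 in replicate 2), U4-U6-60K (350), Prp3 (178) and noi (173). U2af50, which encodes the large subunit of the factor that recruits U2, was the highest of the 79 at its gene start. None of the 8 genes for snRNP assembly and export, such as Smn (80.9 in the pooled list), had an IDR summit. With 8 genes this count is too small to set against 14.5%.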

How the data were processed

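Peaks are on dm6, per the labels. The file notes derive each of the 3 relaxed lists from alignments and 1 shared control alignment, and the IDR list from these 3. Column 7 was used as the score that the authors deposited for each region, column 9 as the −log10 q-value that the authors deposited (not used for a call), and column 10 as the deposited summit offset. Neither labels nor file notes name the aligner, the peak caller or the IDR threshold.

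A gene start is the 5' end of the gene in Ensembl release 115 (BDGP6.54), which uses the dm6 sequence. Bases were read from the RefSeq Release 6 genome, the same sequence, and no region ran past the end of an arm. The highest-scoring summit within 1 kb was taken in each list. Ranks are over each deposited list; regions on Y (up to 3 a list) were then left out. Members, lists and motifs were chosen with earlier results of these data known. Named by rule were members with an IDR summit, the highest of each RNA and those with replicate ranks over 3-fold apart. This ratio could be taken only for the 13 members in both replicate lists, and 0 of them passed it. The rule also named the nearest protein-coding gene within 1 kb of a member's pooled summit. It further named up to 4 genes per list with the highest IDR summits. Other genes named were chosen after their values were seen. With 2 samples in 1 group no test was made; the summit search was checked on simulated positions. Of the list symbols, 10 did not match a gene, some of them other spellings of a matched gene. Uniqueness was computed for 50-mers on both strands of the assembly. Identity is over the columns of a global alignment (Biopython 1.88). Replicate numbers come from the labels. The alternatives tried changed the distance, the number of peaks, the replicate used, the overlap rule and the members.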

Additional observations from a re-analysis of the deposited data

How the results depend on the processing

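With a distance of 250 bp, 4 snRNA genes (12.5%) had an IDR summit and 11 a pooled summit, in place of 7 and 18. Of protein-coding genes, 10.1% had an IDR summit at that distance. A called IDR region overlapped 4 snRNA genes (12.5%), against 14.8% of protein-coding genes. Among the upper 50% of IDR peaks by signal, 1 snRNA gene (7SKa) and 1 distinct summit remained, and 7.37% of protein-coding genes. Leaving out a replicate gave 4 to 6 genes (12.5 to 18.8%, against 14.8 and 13.8% of protein-coding genes) when as many regions of highest signal as the IDR list holds were taken from the other. Without replicate 2 the 4 were 7SKa, U1:95Ca, U4:39B and U2:34ABb, so the U6 cluster and U5:38ABb were lost. Without replicate 1 the 6 were the IDR genes other than U5:38ABb. The count nearer to the snRNA than to a protein-coding start was also 4 to 6. The median distance of the IDR summit, 216 bp, was 128 bp within a distance of 500 bp and 80.5 to 184 bp with a replicate left out. Among the 9 members with over 90% unique sequence, an alternative chosen after seeing the data, 1 had an IDR summit and 3 had a pooled summit 0 to 250 bp downstream. The other settings tried kept each count within 1.5 times its value. No paired analysis was possible because the samples form 1 group. Since depth is unknown, absence from a list does not show absence of signal at the 11 genes in no list.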
